A study of Homo sapiens with 6 samples.

Results

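The nuclear genes that encode respiratory complexes II, III, IV and V were followed in NCI-H295R cells after knockdown of TPD52. The group holds 41 genes, chosen by name: 4 subunits of complex II, 9 of complex III, cytochrome c, 12 of complex IV and 15 of complex V, the ATP synthase. All 41 were found by symbol among the 34869 genes of the table, and no member was under 1 FPKM in any library, so none was lost to the filter on low values. NCI-H295R is an established line from a human adrenocortical carcinoma that makes adrenal steroids. One group, shTPD52, received a lentiviral short hairpin RNA (shRNA) directed at TPD52, and the other, shCtrl, a lentiviral non-targeting shRNA. Each group had 3 libraries of total RNA, numbered 1 to 3. The labels do not name the hairpin, the time after transduction or whether the libraries came from separate cultures. The p-values therefore speak of the spread among these 6 libraries, which may be technical. FPKM are read counts divided by gene length and by the size of the library.

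TPD52 RNA stood at 0.63, 0.635 and 0.655 FPKM in shTPD52 libraries 1, 2 and 3 and at 1.42, 1.18 and 1.29 FPKM in shCtrl libraries 1, 2 and 3. It averaged 0.64 ± 0.013 FPKM in shTPD52 and 1.3 ± 0.12 FPKM in shCtrl (SD, n = 3 each), with no overlap between the groups. Its mean over the 6 libraries was under 1 FPKM, so TPD52 was not among the 12782 genes tested. Of those, 28.3% were lower in shTPD52 without overlap. The library totals worked back from the values ran from 29544341 to 38396624 reads. All 10 adrenocortical markers listed for the line, among them STAR and CYP11A1, averaged at least 1 FPKM, with sums of 440.0 to 448.0 FPKM in shTPD52 and 388.0 to 413.0 in shCtrl. Summed chromaffin, endothelial and leukocyte markers stayed at or under 0.168 FPKM in every library, and of the 3 chromaffin markers (TH, PNMT and DBH) DBH was not analysed here. The 4 fibroblast markers summed to 19.2 to 24.4 FPKM in shTPD52 and 23.0 to 24.8 in shCtrl, with COL3A1 the highest and the other 3 under 1 FPKM on average. Reads of mitochondrially encoded genes made up 23.1%, 20.2% and 24.9% of shTPD52 libraries 1, 2 and 3, and 19.0%, 18.0% and 18.2% of shCtrl libraries 1, 2 and 3, by GENCODE release 29 lengths.

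The complexes sit in the inner mitochondrial membrane. Complex II (succinate dehydrogenase) passes electrons from succinate to ubiquinone, complex III passes them from ubiquinol to cytochrome c, and complex IV (cytochrome c oxidase) hands them to oxygen. Complexes III and IV pump protons, and complex V lets them back to make ATP. Complex II is encoded in the nucleus alone, whereas complexes III, IV and V each join nuclear subunits with some made from mitochondrial DNA. In the adrenal cortex the same membrane carries the enzymes that cleave cholesterol and finish aldosterone.

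Across the group, 6 of 41 members rose in shTPD52, none fell and 35 did not pass, by limma, with p-values adjusted by Benjamini and Hochberg's method over the 12782 genes tested (threshold 0.05). At an unadjusted p under 0.05, 16 members were higher (39.0%, against 11.8% of all genes) and 1, ATP5F1A, was lower (2.44%, against 26.8%). The share called higher was 14.6% of members and 5.63% of all genes tested, and 12.7% of all genes were called lower. Adjusted p-values in the paragraphs on the members come from this fit. The 6 were SDHD of complex II, UQCRB of complex III, and ATP5F1C, ATP5PF, ATP5PO and ATP5MG of complex V. The median log2 fold change was 0.21 over the members and -0.11 over all genes tested, on the scale of log2(FPKM + 0.5). It was positive for 36 members. The groups did not overlap for 15 members that were higher in shTPD52 (36.6%, against 13.8% of all genes) and for 1 that was lower (2.44%, against 28.3%).

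**Figure D1:**
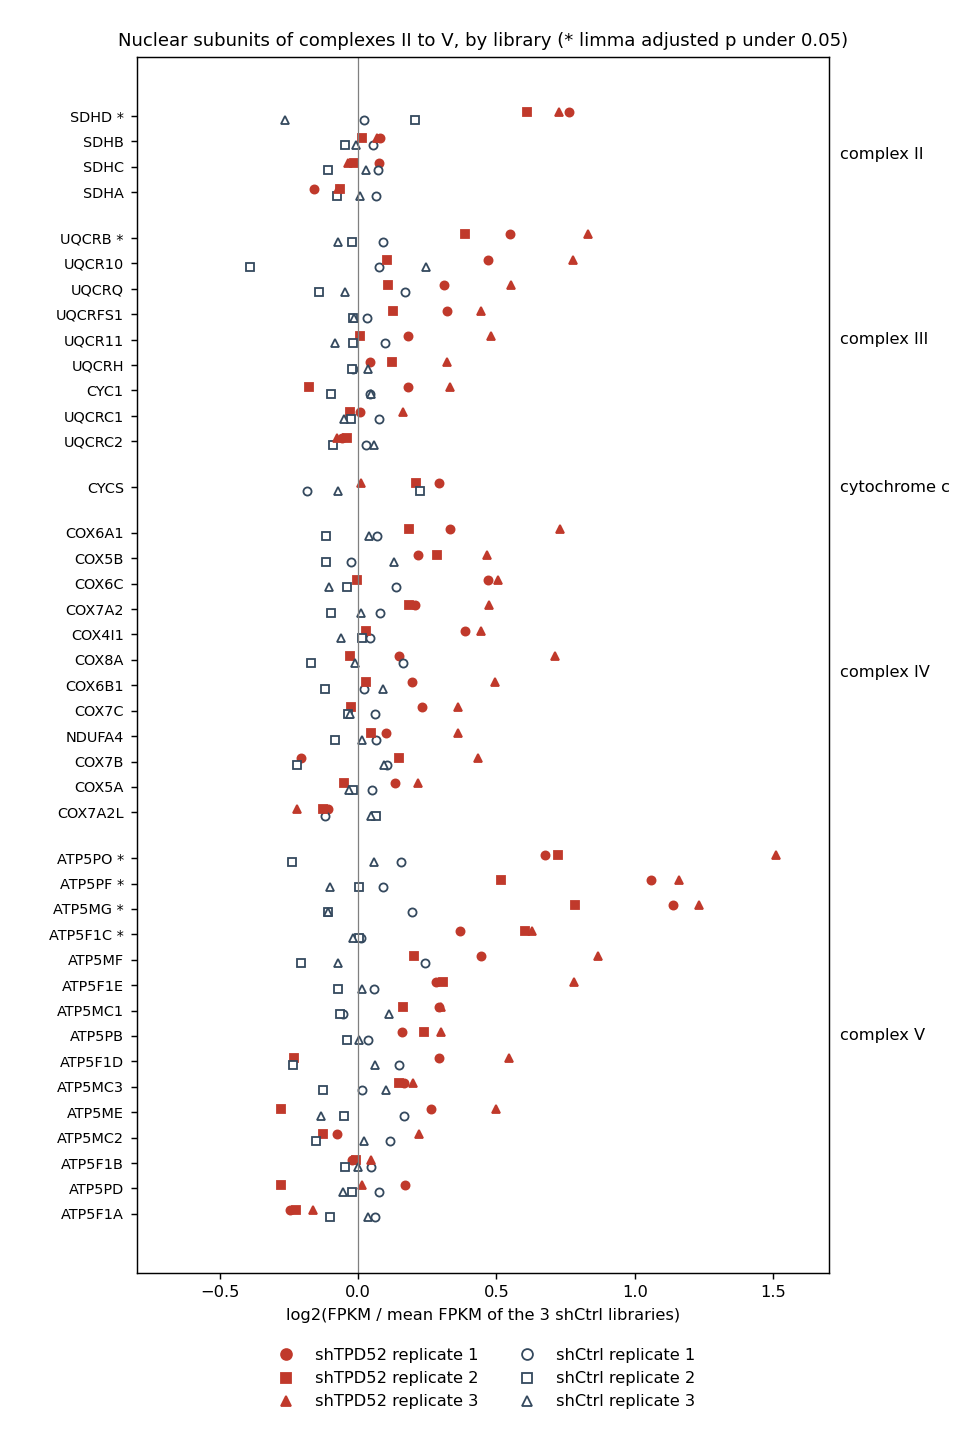
FPKM of each of the 41 members in each library, on a log2 axis relative to the mean of the 3 shCtrl libraries, with shTPD52 as filled and shCtrl as open symbols and genes sorted by fold change within each complex. Asterisks mark the 6 members called higher. In 33 of 41 genes shTPD52 library 3 was the highest of its group, and in 27 library 2 was the lowest.

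The size of the shift differed between the shTPD52 libraries. Library 3 had the highest value of the group in 33 of 41 members, and library 2 the lowest in 27. These are also the libraries with the highest and lowest mitochondrial share in the group, whose part in the result was not tested. Without shTPD52 library 2, 23 of 41 members rose (56.1%, against 12.6% of all genes) and none fell, while 32.9% of all genes were called lower. Without shTPD52 library 3 the same 6 members were called higher as with all libraries, beside 322 of all 12782 genes tested. Without shCtrl library 3 no member passed the limma test, with 12 higher and none lower at an unadjusted p under 0.05. Of all genes, 0.376% were then called higher, and 8.36% were higher and 18.1% lower at that unadjusted p. Without shTPD52 library 1 only ATP5F1C passed among the members (0.509% of all genes higher), without shCtrl library 1 only ATP5MG (0.775%), and without shCtrl library 2 ATP5MG and SDHD (1.4%). Calls were thus lost across all genes as well as among the members.

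Fold changes across the transcriptome ran with gene length, and the members are short. Length here is that of all annotated exons of a gene merged, which can exceed that of the RNA present. Their median length was 2838 bases, against 4425 for all genes tested, and 19 of the 41 are at most 2508 bases long, among the shortest 25% of genes tested, whose median log2 fold change was 0.08. The longest 25% had a median of -0.26. With gene length and GC content regressed out within each library, the median was 0.22 over the members and 0.01 over all genes. The same 6 members were called higher after that correction, beside 10.1% of all genes, and none lower, beside 9.75%. Median-ratio scaling gave medians of 0.33 over the members and 0.00 over all genes, and called 9 members higher (8.47% of all genes) and none lower (8.12%).

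**Figure D2:**
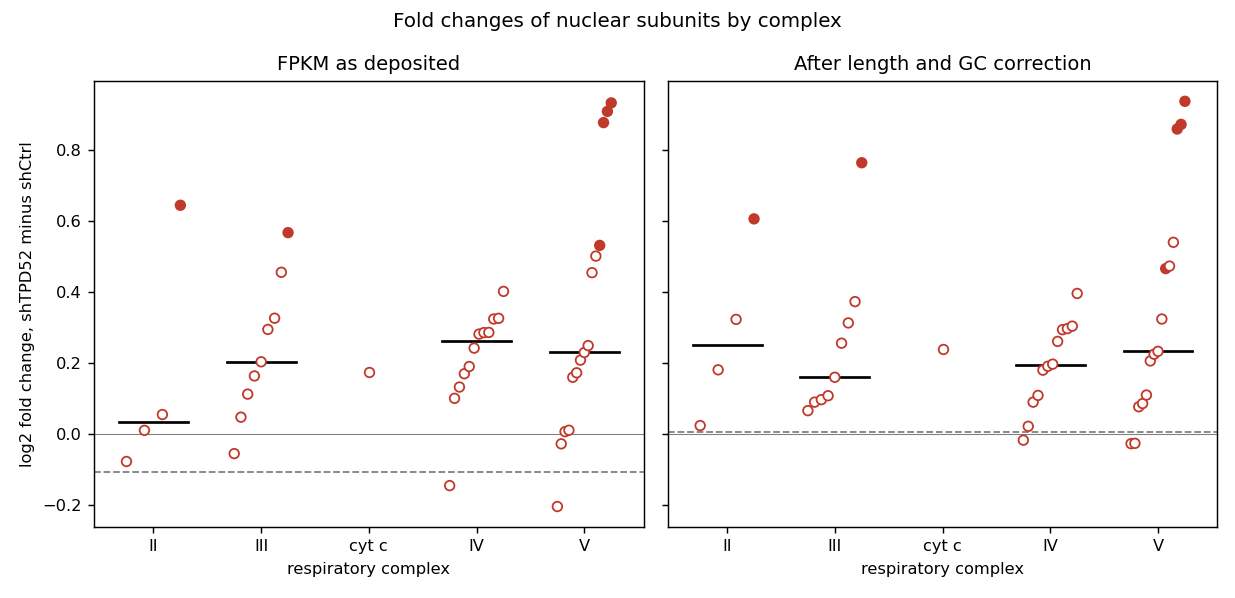
Log2 fold change (shTPD52 minus shCtrl) of every member by complex, on FPKM as deposited (left) and after removal of trends on gene length and GC content (right). Filled points passed the limma test, black lines are medians per complex, and the dashed line is the median of all genes tested, -0.11 on the left and 0.01 on the right. Complex II moved from a median of 0.03 to 0.25 with the correction, and complex V stayed at 0.23.

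The promoters of the called genes are shown because these genes, in 3 different complexes, were the members called higher together, and because the respiratory genes are known to share promoter elements. RefSeq windows (GRCh38.p14, from 250 bases before to 50 after the annotated start) were at hand for 32 of the 41 members and for 5 of the 6 called genes, and UQCRB is not shown. Each is given 5′ to 3′ on the gene's strand, with capitals for matches to any of 6 motifs on either strand. SDHD is at chr11:112086623-112086922 (plus), ATP5F1C at chr10:7787927-7788226 (plus), ATP5MG at chr11:118401356-118401655 (plus), ATP5PO at chr21:33915755-33916054 (minus) and ATP5PF, the more upstream of its windows, at chr21:25735005-25735304 (minus).
SDHD: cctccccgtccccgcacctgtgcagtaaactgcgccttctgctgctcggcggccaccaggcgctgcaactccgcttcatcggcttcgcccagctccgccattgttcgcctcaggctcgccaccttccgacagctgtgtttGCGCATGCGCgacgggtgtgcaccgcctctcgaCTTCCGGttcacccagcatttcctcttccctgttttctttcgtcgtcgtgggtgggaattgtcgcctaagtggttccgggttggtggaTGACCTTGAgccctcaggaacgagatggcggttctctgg
ATP5F1C: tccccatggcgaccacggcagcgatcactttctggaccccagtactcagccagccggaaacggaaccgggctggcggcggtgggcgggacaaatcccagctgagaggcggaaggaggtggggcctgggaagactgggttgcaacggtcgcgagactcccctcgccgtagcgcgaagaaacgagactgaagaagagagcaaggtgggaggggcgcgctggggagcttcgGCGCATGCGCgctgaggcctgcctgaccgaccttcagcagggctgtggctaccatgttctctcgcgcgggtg
ATP5MG: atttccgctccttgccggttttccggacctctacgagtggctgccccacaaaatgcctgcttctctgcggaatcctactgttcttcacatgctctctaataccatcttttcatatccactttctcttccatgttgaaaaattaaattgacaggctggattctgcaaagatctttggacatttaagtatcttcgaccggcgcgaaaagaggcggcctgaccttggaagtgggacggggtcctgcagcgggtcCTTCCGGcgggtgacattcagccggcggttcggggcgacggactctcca
ATP5PO: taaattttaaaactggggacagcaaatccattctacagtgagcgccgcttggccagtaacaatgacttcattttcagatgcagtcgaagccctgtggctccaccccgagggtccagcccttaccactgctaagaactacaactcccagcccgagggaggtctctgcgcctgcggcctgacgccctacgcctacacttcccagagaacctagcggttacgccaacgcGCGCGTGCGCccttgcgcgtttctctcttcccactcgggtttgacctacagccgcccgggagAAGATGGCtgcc
ATP5PF: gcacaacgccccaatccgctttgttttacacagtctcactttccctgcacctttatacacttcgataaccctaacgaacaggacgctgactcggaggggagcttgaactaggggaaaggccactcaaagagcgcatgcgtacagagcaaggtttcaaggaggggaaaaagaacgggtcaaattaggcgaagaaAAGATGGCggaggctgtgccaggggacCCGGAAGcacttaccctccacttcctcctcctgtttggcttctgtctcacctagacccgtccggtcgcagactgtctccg

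The motif of NRF1, a regulator of respiratory genes, was searched as GCGC, any base and TGCGC, and is capitalised in the SDHD, ATP5F1C and ATP5PO windows. It was in windows of 9 of 32 members (28.1%), against 6.98% of the 27305 genes with a window. That set was not limited to the 12782 genes that passed the filter on FPKM, whereas every member passed it. The motif shares thus compare genes of unlike expression. The core of ETS factors such as GABPA, searched as CCGGAAG, is in the SDHD, ATP5MG and ATP5PF windows and was found in 15 of 32 members (46.9%), against 12.2% of all genes. The YY1 motif, searched as AAGATGGC, is in the ATP5PO and ATP5PF windows and was found in 5 of 32 members (15.6%), against 3.52%. The estrogen-related receptor motif, searched as TCAAGGTCA, is in the SDHD window alone among members (3.12%, against 0.432%). The SP1 motif, searched as GGGGCGGGG, was in 4 of 32 members (12.5%, against 18.5%), and the cyclic AMP response element, searched as TGACGTCA, in 3 (9.38%, against 2.25%). Neither was in a window of a called gene. Of the members with these letters, 6 with NRF1 and 12 with ETS did not pass, and a match describes letters, not binding. ATP5PF lies head to head with GABPA on the other strand, and 413 of its 2043 exon bases in GENCODE release 29 overlap exons of GABPA, so reads there cannot be told apart without strand. GABPA RNA averaged 3.78 ± 0.922 FPKM in shTPD52 and 4.08 ± 0.722 FPKM in shCtrl (SD, n = 3 each) and did not pass (log2 fold change -0.11, limma adjusted p = 0.683).

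In complex II, 1 of 4 members rose and 3 did not pass. SDHD (ENSG00000204370, GRCh38 chromosome 11, 112086773 to 112120013) encodes the small membrane anchor that helps hold heme and ubiquinone. It stood at 6.47, 5.82 and 6.31 FPKM in shTPD52 libraries 1, 2 and 3 and at 3.87, 4.40 and 3.18 FPKM in shCtrl libraries 1, 2 and 3. Every shTPD52 library was above every shCtrl library. SDHD rose by 0.64 log2 units (SE 0.12, limma adjusted p = 0.0179), a ratio of mean FPKM of 1.63, and a call kept in 11 of 15 alternatives. Of the 2838 exon bases of SDHD, 319 overlap exons of AP002884.3 on the same strand, for which no FPKM is given here. On the other strand, 26 overlap exons of TIMM8B, which averaged 57.8 FPKM. Reads in these overlaps cannot be told apart, so the level of SDHD is uncertain.

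The partner anchor, SDHC, did not pass. SDHC stood at 39.3, 36.8 and 36.3 FPKM in shTPD52 and 39.2, 34.6 and 38.0 FPKM in shCtrl, with 0.01 as its log2 fold change (limma adjusted p = 0.941), and the groups overlapped. SDHB, the iron-sulfur subunit, stood at 43.0, 41.1 and 42.7 FPKM in shTPD52 and 42.3, 39.4 and 40.5 FPKM in shCtrl, with 0.05 as its log2 fold change (limma adjusted p = 0.597). Within each library the ratio of SDHD to SDHB FPKM, which no scaling factor can alter, was 0.15, 0.141 and 0.148 in shTPD52 and 0.0916, 0.112 and 0.0784 in shCtrl. The ratios did not overlap between groups. This ratio and the later ones of called members set a called gene over an uncalled one, chosen after the values were seen. They are thus no separate support for the calls.

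SDHA, the flavoprotein that oxidises succinate, had the lowest mean of the 41 members over the 6 libraries, with 1.90 ± 0.0695 FPKM in shTPD52 and 2.03 ± 0.0982 FPKM in shCtrl (SD, n = 3 each). Its log2 fold change, -0.08, turns sign with median-ratio scaling (limma adjusted p = 0.623). Its annotated pseudogene SDHAP1 was listed higher than SDHA itself, at 5.02, 5.42 and 4.61 FPKM in shTPD52 and 8.35, 7.33 and 9.2 FPKM in shCtrl. SDHAP1 fell by 0.67 (limma adjusted p = 0.013). SDHAP4 stood at 4.12 to 5.81 FPKM in shTPD52 and 6.16 to 6.32 in shCtrl. Reads can be exchanged between these near-identical copies, so the level of SDHA and of each copy is uncertain.

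In complex III, 1 of 9 members rose and 8 did not pass, with a median log2 fold change of 0.20. UQCRB (ENSG00000156467, GRCh38 chromosome 8, 96225920 to 96235634), a small subunit at the ubiquinone site, stood at 13.3, 11.9 and 16.2 FPKM in shTPD52 and at 9.71, 8.97 and 8.66 FPKM in shCtrl. The groups did not overlap. It rose by 0.57 log2 units (SE 0.12, limma adjusted p = 0.0227), a ratio of means of 1.52, with the call kept in 10 of 15 alternatives. The merged exons of UQCRB, 9715 bases, cover its whole gene, and whole reads were recovered at 12600 bases, so its level is uncertain. The ratio of UQCRB to UQCRC2, a core protein, was 0.467, 0.412 and 0.575 in shTPD52 and 0.32, 0.321 and 0.28 in shCtrl, without overlap.

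The core proteins UQCRC1 and UQCRC2 had log2 fold changes of 0.05 and -0.06 and overlapping groups. UQCRC1, the smallest change of the complex, stood at 80.2, 78.3 and 89.3 FPKM in shTPD52 and 84.2, 78.4 and 77.1 FPKM in shCtrl (limma adjusted p = 0.698). Its sign turns with quantile normalization and that of UQCRC2 with median-ratio scaling. The redox subunits were UQCRFS1, the Rieske iron-sulfur protein, and CYC1, cytochrome c1. UQCRFS1 averaged 49.9 ± 5.43 FPKM in shTPD52 and 40.5 ± 0.796 FPKM in shCtrl (SD, n = 3 each). Its groups did not overlap, yet it did not pass (log2 fold change 0.29, limma adjusted p = 0.0619). CYC1 averaged 35.7 ± 6.2 FPKM in shTPD52 and 32.7 ± 1.84 FPKM in shCtrl, with overlap (limma adjusted p = 0.547).

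UQCRH, the hinge protein beside cytochrome c1, was the most abundant RNA of the complex. It stood at 192, 203 and 233 FPKM in shTPD52 and at 184, 184 and 191 FPKM in shCtrl, without overlap, and did not pass (log2 fold change 0.16, limma adjusted p = 0.21). Its sign turns with quantile normalization. Its near-copy UQCRHL stood at 3.83 ± 0.474 FPKM in shTPD52 and 3.70 ± 0.256 FPKM in shCtrl (SD, n = 3 each). The small subunits UQCRQ, UQCR10 and UQCR11 had log2 fold changes of 0.33, 0.45 and 0.20, overlapping groups and limma adjusted p of 0.106, 0.134 and 0.272. Summed over the complex, FPKM were 471, 454 and 545 in shTPD52 and 444, 418 and 437 in shCtrl, all shTPD52 sums above all shCtrl sums.

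CYCS, cytochrome c, which ferries electrons from complex III to IV, stood at 22.2, 21.0 and 18.3 FPKM in shTPD52 and at 16.0, 21.2 and 17.3 FPKM in shCtrl. The groups overlapped, with shCtrl library 2 above shTPD52 libraries 2 and 3, and CYCS did not pass (log2 fold change 0.18, limma adjusted p = 0.322). Of the 63 annotated pseudogenes of members in the table, 12 averaged at least 1 FPKM, among them CYCSP6 at 2.13 and CYCSP10 at 1.73.

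In complex IV none of the 12 nuclear subunits passed the limma test, although 4 were higher and none lower at an unadjusted p under 0.05, 11 had a positive log2 fold change and the median was 0.26. The summed FPKM were 1063, 995 and 1254 in shTPD52 and 966, 886 and 965 in shCtrl, without overlap. COX5B, a zinc-binding matrix subunit and the most abundant RNA of the complex, stood at 243, 255 and 289 FPKM in shTPD52 and at 206, 193 and 229 FPKM in shCtrl. Its groups did not overlap, and it was just short of the threshold (log2 fold change 0.33, SE 0.10, limma adjusted p = 0.0556).

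COX6A1, the form of subunit VIa outside muscle and heart, had the largest change of complex IV. It stood at 12.6, 11.4 and 16.6 FPKM in shTPD52 and at 10.5, 9.26 and 10.3 FPKM in shCtrl, without overlap (log2 fold change 0.40, limma adjusted p = 0.0778). Its pseudogene COX6A1P2 was listed higher, at 16.2, 17.3 and 26.0 FPKM in shTPD52 and 21.8, 21.7 and 21.3 FPKM in shCtrl, with overlap. Reads can be exchanged between the pair. COX7A2 was the third with groups apart, at 52.1 ± 5.97 FPKM in shTPD52 and 42.6 ± 2.64 FPKM in shCtrl (SD, n = 3 each, limma adjusted p = 0.0784).

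The other 9 subunits overlapped between groups. COX5A, the smallest change, stood at 159, 140 and 168 FPKM in shTPD52 and 150.0, 143 and 142 FPKM in shCtrl (log2 fold change 0.10, limma adjusted p = 0.425), and its sign turns with quantile normalization. COX4I1, COX6B1, COX6C, COX7B, COX7C, COX8A and NDUFA4, a subunit once placed in complex I, had log2 fold changes between 0.13 and 0.32 and adjusted p of 0.111 or more. COX7A2L, which ties complex III to complex IV in supercomplexes, was the 1 subunit of the complex with a negative value, at 24.4 ± 1.00 FPKM in shTPD52 and 27.1 ± 1.86 FPKM in shCtrl (SD, n = 3 each, log2 fold change -0.15, limma adjusted p = 0.226). Without shTPD52 library 2, COX4I1, COX5B, COX6A1, COX6B1, COX6C, COX7A2 and COX7C rose.

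In complex V, 4 of 15 members rose, none fell and 11 did not pass, with a median log2 fold change of 0.23. Within the catalytic F1 part 1 of 5 members rose. ATP5F1B, the catalytic beta subunit and the most abundant RNA of all 41 members, stood at 406, 410.2 and 425 FPKM in shTPD52 and at 426, 399 and 412 FPKM in shCtrl. The groups overlapped and the log2 fold change was 0.01 (limma adjusted p = 0.961), with a sign that turns with quantile normalization. ATP5F1C (ENSG00000165629, GRCh38 chromosome 10, 7788129 to 7807815), the gamma subunit that turns inside the catalytic ring, stood at 131, 154 and 157 FPKM in shTPD52 and at 102, 102 and 100 FPKM in shCtrl. It rose by 0.53 (SE 0.09, limma adjusted p = 0.013), with no overlap between groups and the call kept in 12 of 15 alternatives.

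ATP5F1A, the alpha subunit, stood lower in every shTPD52 library than in every shCtrl library. Its values were 33.2, 33.7 and 35.2 FPKM in shTPD52 and 41, 36.7 and 40.4 FPKM in shCtrl. It did not pass (log2 fold change -0.20, limma adjusted p = 0.0944), and after the length and GC correction its log2 fold change was 0.09. The ratio of ATP5F1C to ATP5F1B was 0.322, 0.375 and 0.368 in shTPD52 and 0.24, 0.255 and 0.243 in shCtrl. The ratio of ATP5F1A to ATP5F1B was 0.0819, 0.0822 and 0.0827 in shTPD52 and 0.0964, 0.092 and 0.0979 in shCtrl. Both ratios were apart between groups, in opposite directions. Trends with gene length remain in such ratios. After the length and GC correction the log2 fold change was 0.09 for ATP5F1A, -0.03 for ATP5F1B and 0.47 for ATP5F1C, so the lower ATP5F1A ratio was not kept. That correction took 10908 bases as the length of ATP5F1A, all its annotated exons merged, so its corrected value is uncertain. Of the small central stalk subunits, epsilon (ATP5F1E) averaged 56.1 ± 11.5 FPKM in shTPD52 and 40.4 ± 1.86 FPKM in shCtrl (SD, n = 3 each), without overlap and just short of the threshold (log2 fold change 0.45, limma adjusted p = 0.0526). Delta (ATP5F1D) had a log2 fold change of 0.21 and overlapped (limma adjusted p = 0.445).

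The peripheral stalk, which keeps the catalytic head from turning with the rotor, had 2 of 4 members higher and a median log2 fold change of 0.57. ATP5PF (ENSG00000154723, GRCh38 chromosome 21, 25716503 to 25735673), coupling factor 6, stood at 120.1, 82.4 and 129 FPKM in shTPD52 and at 61.4, 57.8 and 53.8 FPKM in shCtrl. All shTPD52 libraries were above all shCtrl libraries, library 2 least so. ATP5PF rose by 0.91 (SE 0.16, limma adjusted p = 0.0148), a ratio of means of 1.92, with the call kept in 10 of 15 alternatives. Its exons overlap those of GABPA and, over 58 bases, of JAM2, which averaged 3.93 and 5.87 FPKM over the 6 libraries. ATP5PO (ENSG00000241837, GRCh38 chromosome 21, 33903453 to 33915980), the OSCP subunit at the top of the stalk, stood at 11.2, 11.6 and 20.0 FPKM in shTPD52 and at 7.81, 5.95 and 7.30 FPKM in shCtrl. It rose by 0.93 (SE 0.22, limma adjusted p = 0.0277), a ratio of 2.03, with shTPD52 library 3 well above the other libraries and the call kept in 10 of 15 alternatives. Of the 3336 exon bases of ATP5PO, 655 overlap exons of AP000311.1 on the same strand, for which no FPKM is given here. Reads there cannot be told apart even with strand, so the level of ATP5PO is uncertain.

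The stalk's other members did not pass. ATP5PB, subunit b, averaged 41.4 ± 2.0 FPKM in shTPD52 and 35.2 ± 0.918 FPKM in shCtrl (SD, n = 3 each), without overlap and not past the threshold (log2 fold change 0.23, limma adjusted p = 0.0647). ATP5PD, subunit d, had a log2 fold change of -0.03 whose sign turns with median-ratio scaling (limma adjusted p = 0.877). The ratio of ATP5PF to ATP5PB was 3.05, 1.99 and 2.97 in shTPD52 and 1.7, 1.69 and 1.52 in shCtrl. That of ATP5PO to ATP5PB was 0.285, 0.279 and 0.462 in shTPD52 and 0.216, 0.174 and 0.207 in shCtrl, both without overlap.

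**Figure D3:**
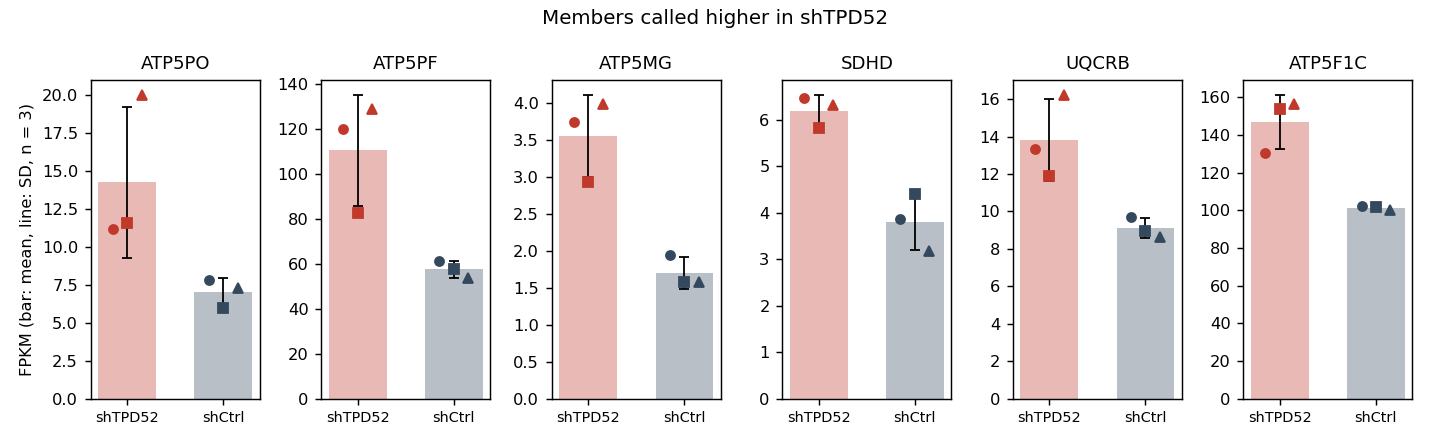
FPKM of the 6 members called higher, with each library as a point, bars for the mean and lines for the SD (n = 3 each), shTPD52 on the left of each panel. In each panel all shTPD52 points lie above all shCtrl points. Within shTPD52 the SD was 4.98 FPKM for ATP5PO on a mean of 14.3 and 24.7 FPKM for ATP5PF on a mean of 110.4.

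The membrane part of complex V holds the c-ring and small subunits that bend the membrane. ATP5MC1, ATP5MC2 and ATP5MC3 encode the same mature c subunit behind different import sequences, and none of the 3 passed the limma test (1 higher at an unadjusted p under 0.05). ATP5MC1 stood at 25.9, 23.7 and 26.0 FPKM in shTPD52 and at 20.4, 20.2 and 22.8 FPKM in shCtrl, without overlap (log2 fold change 0.25, limma adjusted p = 0.0745). ATP5MC2 stood at 58.7, 56.6 and 72.1 FPKM in shTPD52 and at 67.0, 55.7 and 62.8 FPKM in shCtrl, with overlap (0.01, limma adjusted p = 0.959). ATP5MC3 stood at 57.4, 56.6 and 58.7 FPKM in shTPD52 and at 51.6, 46.9 and 54.9 FPKM in shCtrl, without overlap (0.17, limma adjusted p = 0.157).

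ATP5MC1 made up 18.2%, 17.3% and 16.6% of summed c-ring FPKM in shTPD52 and 14.6%, 16.4% and 16.2% in shCtrl, without overlap between groups, while the shares of ATP5MC2 and ATP5MC3 overlapped. Of the supernumerary subunits, ATP5MG (ENSG00000167283, GRCh38 chromosome 11, 118401154 to 118431496), subunit g, stood at 3.74, 2.92 and 3.99 FPKM in shTPD52 and at 1.94, 1.58 and 1.58 FPKM in shCtrl. It rose by 0.88 (SE 0.14, limma adjusted p = 0.0127), a ratio of means of 2.09 and the call kept in 12 of 14 alternatives. These values rest on about 312 to 448 reads per shTPD52 library and 141 to 195 per shCtrl library. Of the 3382 exon bases of ATP5MG, 277 overlap exons of AP001267.5 on the same strand, for which no FPKM is given here. Reads there cannot be told apart even with strand, so the level of ATP5MG is uncertain. The ratio of ATP5MG to ATP5ME, subunit e, was 0.381, 0.434 and 0.346 in shTPD52 and 0.212, 0.2 and 0.212 in shCtrl. ATP5MF (subunit f) and ATP5ME had log2 fold changes of 0.50 and 0.16, overlapped between groups and did not pass (limma adjusted p = 0.0813 and 0.544). The sign of ATP5ME was negative without shTPD52 library 3.

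**Figure D4:**
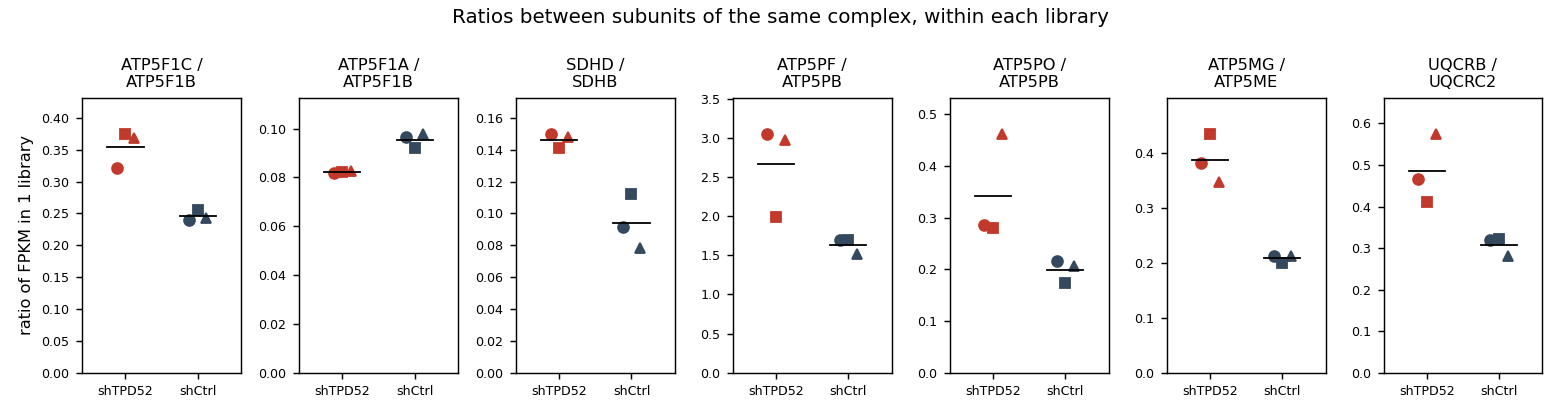
Ratio of the FPKM of one subunit to that of another of the same complex within each library, with shTPD52 on the left of each panel and a line at the mean of 3 libraries. ATP5F1A over ATP5F1B lies lower in shTPD52, and the other 6 ratios lie higher, with no overlap between groups in any panel. The numerators of those 6 are the members already called higher, so their lack of overlap is no separate support. Trends with gene length were not removed from the ratios.

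The mitochondrially encoded partners of these complexes were read in the same libraries. Of the 6, 2 rose and 4 did not pass, beside 5.63% of all genes tested called higher and 12.7% lower. MT-CO3 stood at 27770, 23690 and 28890 FPKM in shTPD52 and at 18250, 18610 and 19390 FPKM in shCtrl (log2 fold change 0.51, limma adjusted p = 0.0342), called in 5 of 15 alternatives and not in those by median-ratio scaling (limma adjusted p = 0.0713) or correction for length and GC (0.0587). MT-ATP8 stood at 9398, 7988 and 5828 FPKM in shTPD52 and at 2630, 5225 and 2542 FPKM in shCtrl (1.22, limma adjusted p = 0.0312). It overlaps MT-ATP6 on the same strand, so its level is uncertain. MT-CYB, MT-CO2 and MT-ATP6 had log2 fold changes of 0.27, 0.37 and 0.55, and MT-CO1 of -0.11, whose sign turns with median-ratio scaling (limma adjusted p = 0.17, 0.165, 0.0816 and 0.496). The sign of MT-CYB turns with quantile normalization. Thus within complex IV the 3 mitochondrially encoded subunits ranged from -0.11 to 0.51, and the 12 nuclear ones from -0.15 to 0.40.

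Among the nuclear subunits of complex I, the usual entry point of electrons from NADH, 3 of the 34 that were tested rose, 31 did not pass and none fell, with a median of 0.20. These were NDUFC2 (log2 fold change 1.06, limma adjusted p = 0.0152), NDUFB5 (0.83, 0.0272) and NDUFAB1 (0.35, 0.0362). At an unadjusted p under 0.05, 8 were higher (23.5%, against 11.8% of all genes) and 2 lower (5.88%, against 26.8%). Of 36 tested assembly factors of complexes II to V, 3 rose, 33 did not pass and none fell, with a median of 0.18. Beside the 3 of 34 and the 3 of 36, 5.63% of all genes tested were called higher and 12.7% lower. COX14, which steadies newly made COX1, stood at 13.8, 12.9 and 15.5 FPKM in shTPD52 and at 11.5, 9.14 and 10.8 FPKM in shCtrl, and rose by 0.41 (limma adjusted p = 0.0413). TACO1, an activator of COX1 translation, rose by 0.35, and HIGD1A by 0.40 (limma adjusted p = 0.0354 each). HIGD1A was not called once length and GC were corrected for (limma adjusted p = 0.0903). That correction called 6 assembly factors and 4 complex I subunits higher and none lower. Of all genes, 10.1% were then called higher and 9.75% lower.

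Of 5 tested genes for other ATP synthase and chain proteins outside the 41, 2 rose and 3 did not pass (5.63% of all genes were called higher). The 2 that rose encode small proteins of the ATP synthase membrane part. ATP5MJ stood at 27.0, 28.2 and 32.7 FPKM in shTPD52 and at 22.2, 20.1 and 20.5 FPKM in shCtrl, and rose by 0.47 (limma adjusted p = 0.02). ATP5MK stood at 82.9, 77.8 and 91.8 FPKM in shTPD52 and at 65.8, 68.2 and 67.4 FPKM in shCtrl, and rose by 0.32 (limma adjusted p = 0.0353), but not once length and GC were corrected for (limma adjusted p = 0.0547). For both genes the groups did not overlap. No call on these 4 lists held in every alternative.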

How the data were processed

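RNA was sequenced in 6 NCI-H295R libraries, 3 shTPD52 and 3 shCtrl. The authors deposited FPKM for 34869 genes; HISAT2 2.2.1, featureCounts 2.0.3 and GRCh38 are named in the submitters' processing notes, without their roles. The sources used here give no annotation, filters or strand setting, and overlapping genes cannot be told apart. Symbols, coordinates, union exon length and GC content of the longest transcript came from GENCODE release 29 and the symbol table. Genes averaging at least 1 FPKM (12782) were tested with limma 3.58.1 in R 4.3.3 on log2(FPKM + 0.5), with an intensity trend and Benjamini-Hochberg adjustment. This scale understates changes of low genes. Reads were recovered as whole numbers (within 0.02 reads) at the length nearest to GENCODE's that gave them. They cover counting error only and may count both mates. They ran from 141 to 36538 per member and library. Scripts were tested on simulated data. Alternatives were pseudocounts of 0.1 and 1, filters, scalings, the replicate block and each library left out. Members, lists and tests were chosen with earlier results of these data known, and so give no independent support to the shift of respiratory genes seen there. Named with values in every library were passing members, the largest and smallest change and highest level per complex, CYCS and c-ring genes, and up to 3 passing genes per other list. Motifs and ratios were chosen after values were seen. The correction for length and GC used loess (span 0.3; 12707 genes). The deviations of same-numbered libraries correlated at 0.045, 0.248 and 0.022, and the numbers were not taken as pairs. With 3 libraries per group these values cannot exclude pairing.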

Additional observations from a re-analysis of the deposited data

How the results depend on the processing

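Without a filter, 177 genes were called higher and 354 lower, with 2 members (0 in complexes II and III, 2 in complex V) and 0 genes of the other lists in either direction. Median-ratio scaling called 1083 genes higher and 1038 lower, with 1 member of complex IV and 1 lower gene of the other lists. Quantile normalization called 1152 higher, with 2 members in complex III. The length and GC correction called 1288 higher. Rescaling outside mitochondrial genes called 982 genes higher and 1207 lower, with 10 members, 1 in complex IV and 7 in complex V, and 1 lower gene of the other lists. A filter of 5 FPKM, which left out 3 members, called 600 of 6455 genes higher and 1175 lower. It called 8 members higher, 2 of them in complex III and 1 in complex IV. The replicate block called 906 genes higher and 2158 lower, with 11 members, 2 in complex III and 2 in complex IV. Whether same-numbered libraries were paired is not known. Over the fits that leave out 1 library, genes called higher ran from 48 to 1616 and lower from 39 to 4209, members from 0 to 23, those of complex II from 0 to 1, III from 0 to 5, IV from 0 to 7 and V from 0 to 10, and the other lists (11 higher and 2 lower with all libraries) from 0 to 37 higher and 0 to 9 lower. No member was called lower in any of the 15 alternatives. No call among the 6 members held in all alternatives, and the causes were not tested.

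Signs turned for 12 members and 2 mitochondrial genes, none of them called there. With median-ratio scaling these were SDHA (0.021), UQCRC2 (0.066), ATP5PD (0.092) and MT-CO1 (0.015). With quantile normalization they were SDHA (0.058), UQCRC1 (-0.042), UQCRH (-0.036), COX5A (-0.008), ATP5F1B (-0.199), ATP5PD (0.044), ATP5MC2 (-0.065) and MT-CYB (-0.088). With the length and GC correction they were SDHA (0.18), UQCRC2 (0.065), ATP5F1A (0.085) and ATP5F1B (-0.028), and on rescaling outside mitochondrial genes UQCRC2 (0.021) and ATP5PD (0.048). Leaving out 1 library turned SDHC (range -0.043 to 0.047), UQCRC1 (-0.01 to 0.085), COX7B (-0.021 to 0.296), ATP5F1B (-0.018 to 0.029), ATP5PD (-0.125 to 0.091), ATP5MC2 (-0.097 to 0.076) and ATP5ME (-0.001 to 0.366).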

Other observations

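Genes that feed or regulate the chain were read in the same fit, in which 5.63% of all genes were called higher and 12.7% lower. Of 11 tested genes of coenzyme Q synthesis, which make the ubiquinone that complexes II and III share, 1 fell, 10 did not pass and none rose, with a median log2 fold change of -0.02. COQ9, a lipid-binding protein of that pathway, stood at 10.8, 12.7 and 13.3 FPKM in shTPD52 and at 18.4, 17.1 and 19.0 FPKM in shCtrl, and fell by 0.56 log2 units (SE 0.10, limma adjusted p = 0.016), with the call kept in 11 of 15 alternatives. None of 5 tested genes for other donors to ubiquinone passed the limma test, with none higher and 1, GPD2, lower at an unadjusted p under 0.05. GPD2 was just short of the threshold (log2 fold change -0.46, limma adjusted p = 0.0503) and was called lower in 4 of 14 alternatives. With the length and GC correction it was called lower (-0.305, limma adjusted p = 0.0416), beside 9.75% of all genes.

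Of 9 tested regulators of respiratory chain transcription, 1 rose, 1 fell and 7 did not pass. TFB2M, a factor that opens mitochondrial promoters, stood at 5.60, 6.44 and 5.15 FPKM in shTPD52 and at 4.17, 4.45 and 3.66 FPKM in shCtrl, and rose by 0.44 (limma adjusted p = 0.0399). PPRC1, a coactivator of the PGC-1 family, fell by 0.36 (limma adjusted p = 0.047) but was not called after correction for length and GC (-0.13, limma adjusted p = 0.213). That correction called TFB2M and TFAM higher (TFAM 0.40, limma adjusted p = 0.032) and no regulator lower, beside 10.1% and 9.75% of all genes. Median-ratio scaling called TFB2M and GABPB1 higher (GABPB1 0.40, limma adjusted p = 0.0452) and no regulator lower, beside 8.47% and 8.12%. NRF1 had -0.12 as its log2 fold change (limma adjusted p = 0.456).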
